A study of Mus musculus with 4 samples.

Results

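The miRNAs described here are 9 entries from 5 kinds of hairpin that are linked to brown and white fat: miR-193a-3p, miR-193a-5p, miR-193b-3p, miR-193b-5p, miR-365-3p, miR-455-3p, miR-455-5p, miR-378a-3p and miR-378a-5p. They were taken by name from the 1152 entries of each deposited list, and all 9 were present. Small RNA was sequenced from aortas of 12-week wild type C57BL/6 mice, an inbred laboratory strain, in 2 libraries labelled Sham and 2 labelled CKD (chronic kidney disease), each made from a pool of 4 samples. The labelled procedure removed the poles of the left kidney and, 1 week later, the right kidney, followed by 4 weeks of food with 2% phosphate and drinking water with 0.45% NaCl. The labels give this procedure in the same words for both groups, so they leave unstated what the Sham mice received. They do not say either whether perivascular fat was left on the aortas, and no adipocyte mRNA was measured in these libraries.

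A miRNA is cut from a hairpin whose 5′ and 3′ arms can each give a mature strand (5p and 3p), and bases 2 to 8 of that strand, the seed, guide it to target mRNAs. In fat, miR-193b and miR-365 are induced as brown adipocytes differentiate, miR-455 is known as an activator of brown adipogenesis that represses factors opposing it, and miR-378a is known for effects on brown fat mass and fatty acid metabolism. None of them belongs to fat alone: miR-455 is also a cartilage miRNA and miR-378a is also abundant in muscle.

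Mature sequences were found in RefSeq (build GRCm38.p6) for 7 of the 9 entries, and they are printed 5′ to 3′ with the seed in capitals because the strands are compared with each other below.
miR-193a-3p: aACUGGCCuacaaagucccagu
miR-193b-3p: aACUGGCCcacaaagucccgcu
miR-193a-5p: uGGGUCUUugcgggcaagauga
miR-193b-5p: cGGGGUUUugagggcgagauga
miR-365-3p: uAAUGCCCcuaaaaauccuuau
miR-455-3p: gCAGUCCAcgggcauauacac
miR-455-5p: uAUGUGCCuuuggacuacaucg
The 3p strands of miR-193a and miR-193b share their seed and differ at 3 of 22 positions (U9C, A20G and G21C, counted from the 5′ end, miR-193a-3p first). Their 5p strands differ at 5 of 22 positions (U1C, U5G, C6U, C11A and A16G, miR-193a-5p first) and have different seeds. No member had values identical to another entry in all 4 libraries. miR-365-3p is the same 22-base strand from both of its hairpins, so its reads cannot be split between them. miR-455-3p is the shortest of these strands, at 21 bases, and the others have 22. The labels give a gel window of 18 to 30 nucleotides and, for the amplified strip, 22 to 30.

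In GRCm38 the hairpins of miR-193 and miR-365 lie as 2 pairs. Mir193b (chromosome 16, 13449523 to 13449601) and Mir365-1 (chromosome 16, 13453840 to 13453926) are 4238 bases apart, and both lie in an intron of the antisense gene Gm15738 on the opposite strand. Mir193a (chromosome 11, 79711969 to 79712034) and Mir365-2 (chromosome 11, 79726400 to 79726511) are 14365 bases apart and overlap no annotated gene. Mir455 (chromosome 4, 63256851 to 63256932) lies in an intron of Col27a1, which encodes a fibrillar collagen of cartilage, and Mir378a (chromosome 18, 61397835 to 61397900) in an intron of Ppargc1b, a coactivator of mitochondrial genes. Both hosts are on the same strand as the hairpin. Mir378a also overlaps Gm25301, annotated as a miRNA gene on the opposite strand.

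The libraries held 16658810 to 17532748 reads of listed entries, so 3 reads corresponded to 0.171 to 0.180 counts per 1000000 (CPM). The smooth muscle miRNA miR-143-3p made up 79.8% and 72.5% of reads in Sham and 41.1% and 40.8% in CKD. Each library has a fixed total, so this smaller share by itself raises the CPM of other entries, and the median log2 difference (CKD minus Sham) of the 479 entries tested was 1.34. Values are therefore given on the deposited CPM and on CPM divided by trimmed-mean (TMM) factors, which take out the shift shared by most entries and left a median of -0.00083. By limma, at an adjusted p under 0.05, 402 entries passed with deposited CPM, 397 higher and 5 lower, and 37 with TMM scaling, 9 higher and 28 lower. With library totals counted without miR-143-3p, 28 passed, 14 in each direction, and by DESeq2 on recovered reads 77 passed, 28 higher and 49 lower. Nothing in the labels says that the pools came from separate mice, so each p-value reflects the spread between these libraries alone. In bulk tissue, fewer cells of a type and less RNA per cell cannot be told apart.

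On the deposited scale the fat-linked miRNAs were higher in CKD, as most entries were, with group means 1.73-fold (miR-455-5p) to 4.56-fold (miR-193a-5p) above Sham. By limma with Benjamini-Hochberg adjustment over all entries, 8 of 9 rose and miR-455-5p did not pass, where 82.9% of all tested entries were called higher, and all 9 had an unadjusted p under 0.05 (background 86%). Both CKD libraries lay above both Sham libraries for all 9, against 91.2% of all tested entries. The median log2 difference of the 9 was 1.32, beside 1.34 for all tested. With TMM scaling none of the 9 passed (background 7.72%), 2 had an unadjusted p under 0.05 (background 25.9%), and their median was -0.13. edgeR's quasi-likelihood test called none (background 6.47%), with 1 unadjusted p under 0.05 (background 24.4%). DESeq2 called 1, miR-455-5p, as lower (background 10.2%), with 3 unadjusted p under 0.05 (background 25.3%). The deposited count was 3 without Sham 1, 8 without Sham 2, 1 without CKD 1 and 5 without CKD 2, and it was 3 without the filter on low values. It thus moved by more than 1.5 times with the filter and with each library except Sham 2.

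**Figure D1:**
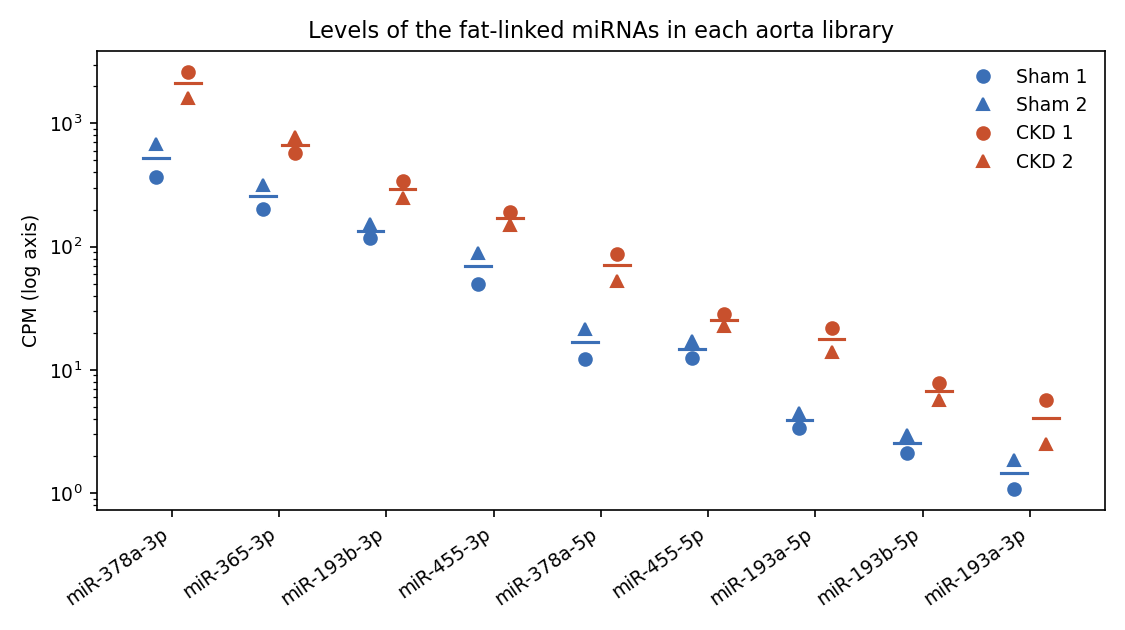
CPM (log axis) of the 9 miRNAs in each library. Circles are replicate 1, triangles replicate 2 and short lines the group means. For each miRNA the CKD libraries lie above the Sham libraries, and the levels run from 1.08 CPM (miR-193a-3p, Sham 1) to 2631 CPM (miR-378a-3p, CKD 1).

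The 9 miRNAs stood in the same order of level in both groups. In Sham the order ran from miR-378a-3p (525 CPM) through miR-365-3p (260), miR-193b-3p (135), miR-455-3p (69.8), miR-378a-5p (16.8), miR-455-5p (14.8), miR-193a-5p (3.94) and miR-193b-5p (2.54) to miR-193a-3p (1.46 CPM). Among neighbours in this order, only miR-378a-5p and miR-455-5p had overlapping Sham libraries. In CKD no neighbours overlapped. This is an order of reads, and how well each sequence was captured was not tested.

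miR-378a-3p, the main strand of its hairpin and the most abundant of the 9, stood at 368 and 682 CPM (Sham) and 2631 and 1622 CPM (CKD). Both CKD libraries were high, CKD 1 more so, and the group means were 525 ± 222 and 2126 ± 713 CPM (SD, n = 2). On the deposited scale it rose by 2.04 in log2 terms (SE 0.44, limma adjusted p = 0.0021), a call lost without CKD 1 (1.69, limma adjusted p = 0.095). With TMM scaling it had 770 and 981 CPM (Sham) and 1454 and 977 CPM (CKD), so the groups overlapped through CKD 2. That difference was 0.46 (SE 0.25, limma adjusted p = 0.32), and lay between 0.16 and 0.75 over all settings tried.

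miR-378a-5p, the minor strand of the same hairpin, followed the 3p strand closely. It had 12.3 and 21.3 CPM (Sham) and 87.9 and 52.7 CPM (CKD), and rose in deposited CPM by 2.00 (log2, SE 0.41, limma adjusted p = 0.0018). The call was lost without CKD 1 (1.64, limma adjusted p = 0.091). With TMM scaling both CKD libraries (48.6 and 31.7 CPM) lay above both Sham libraries (25.8 and 30.6 CPM), as 28% of all tested entries did. The difference of 0.47 (SE 0.25, limma adjusted p = 0.30) did not pass.

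The file lists 3 more miR-378 entries, miR-378b, miR-378c and miR-378d, related miRNAs from other loci, and the sources used here do not say how reads matching several of them were shared out. miR-378c had 37.8 and 72.9 CPM (Sham) and 296 and 171 CPM (CKD). miR-378d had 16.3 and 30.3 CPM (Sham) and 136 and 84.5 CPM (CKD). miR-378b, the least abundant, had 2.45 and 4.09 CPM (Sham) and 20.0 and 10.8 CPM (CKD). With deposited CPM all 3 rose, with log2 differences of 2.08, 2.22 and 1.91 in that order (limma adjusted p = 0.0025, 0.0015 and 0.0012), and none passed with TMM scaling, at 0.51, 0.67 and 0.55. In each, CKD 1 was the highest library, as for both miR-378a strands. miR-378a-3p kept 86.7% and 86.4% of the reads of miR-378a-3p, miR-378b, miR-378c and miR-378d in Sham, and 85.3% and 85.9% in CKD.

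Of the miR-455 strands, miR-455-5p had the lowest deposited difference among the 9 and miR-455-3p the middle one. miR-455-5p had 12.4 and 17.2 CPM (Sham) and 28.6 and 22.6 CPM (CKD), and its deposited difference of 0.76 (SE 0.34, limma adjusted p = 0.053) was the smallest of the 9 and did not pass. It passed on that scale without Sham 2 (0.98, limma adjusted p = 0.030) and with a pseudocount of 10 (0.52, limma adjusted p = 0.047). With TMM scaling it had 25.9 and 24.7 CPM (Sham) and 15.8 and 13.6 CPM (CKD). Both CKD libraries lay below both Sham libraries there, as 31.5% of all tested entries did, and the libraries of each group were close together. The TMM-scaled difference was -0.75 (SE 0.14, unadjusted p = 0.0041, limma adjusted p = 0.051) and missed the threshold, and edgeR gave -0.78 (adjusted p = 0.052). The call depends on which entries set the TMM factors. Factors from all listed entries were computed first and gave -0.72 (limma adjusted p = 0.044), a call, in a fit that called 7.93% of entries. Factors from the 479 tested entries were made the main version after that value had been seen, so the miss is no firmer than the call. DESeq2 called it too (-0.75, adjusted p = 0.019). Over all settings of this scale the adjusted p ran from 0.019 to 0.22, and the difference from -0.85 to -0.50.

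miR-455-3p, the more abundant strand, had 50.1 and 89.5 CPM (Sham) and 190 and 150 CPM (CKD). It rose in deposited CPM by 1.32 (log2, SE 0.43, limma adjusted p = 0.015), close to the median of all entries. The call was lost without Sham 1 (0.91, limma adjusted p = 0.062), without CKD 1 (1.15, limma adjusted p = 0.22) or without CKD 2 (1.49, limma adjusted p = 0.12), and without the filter on low values (limma adjusted p = 0.071). With TMM scaling the libraries overlapped, at 105 and 129 CPM (Sham) and 105 and 90.4 CPM (CKD). The difference there was -0.25 (SE 0.17, limma adjusted p = 0.39), and 0.0082 with library totals without miR-143-3p.

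**Figure D2:**
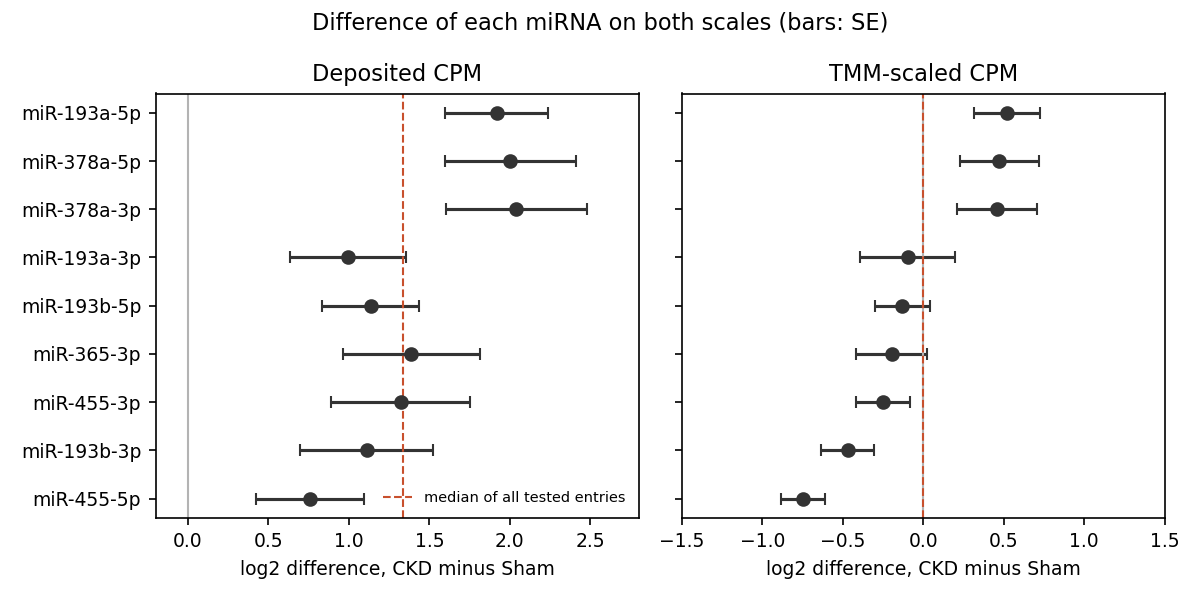
Log2 difference (CKD minus Sham) of each miRNA from limma on deposited CPM and on TMM-scaled CPM, with bars of 1 standard error (SE) and a dashed line at the median of all 479 tested entries. miR-193a-5p and both miR-378a strands lie to the right of that line on both scales, and miR-455-5p lies farthest to its left.

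miR-193b-3p, the main strand of the miR-193b hairpin in the chromosome 16 pair, had 117 and 153 CPM (Sham) and 339 and 247 CPM (CKD). It rose in deposited CPM by 1.11 (log2, SE 0.42, limma adjusted p = 0.027), less than the median of all entries. This call was lost without Sham 1 (0.92, limma adjusted p = 0.074), without CKD 1 (0.88, limma adjusted p = 0.33), without CKD 2 (1.34, limma adjusted p = 0.17) and without the filter on low values (limma adjusted p = 0.059). With TMM scaling both CKD libraries (187 and 149 CPM) lay below both Sham libraries (244 and 220 CPM), as 31.5% of all tested entries did. The difference was -0.47 (SE 0.17, unadjusted p = 0.042, limma adjusted p = 0.17), which did not pass.

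Its minor strand miR-193b-5p had 2.11 and 2.96 CPM (Sham) and 7.87 and 5.70 CPM (CKD). In deposited CPM it rose by 1.14 (log2, SE 0.30, limma adjusted p = 0.0053). That call was lost without Sham 1 (0.96, limma adjusted p = 0.052), without CKD 1 (0.93, limma adjusted p = 0.086) and without the filter (limma adjusted p = 0.052). With TMM scaling it had 4.41 and 4.25 CPM (Sham) and 4.35 and 3.43 CPM (CKD), which overlap, and the difference was -0.13 (SE 0.17, limma adjusted p = 0.64).

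miR-365-3p, made by both the chromosome 16 and the chromosome 11 pair, had 203 and 316 CPM (Sham) and 571 and 772 CPM (CKD). Here CKD 2 was the highest library, whereas CKD 1 was the highest for the other 8. It rose in deposited CPM by 1.39 (log2, SE 0.43, limma adjusted p = 0.011), a call lost without Sham 1 (1.07, limma adjusted p = 0.053), without CKD 1 (1.60, limma adjusted p = 0.11), without CKD 2 (1.17, limma adjusted p = 0.22) and without the filter (limma adjusted p = 0.052). With TMM scaling the Sham libraries (424 and 455 CPM) lay between CKD 1 (316 CPM) and CKD 2 (465 CPM), and the difference was -0.20 (SE 0.22, limma adjusted p = 0.59).

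The miR-193a hairpin gave few reads and its 5p strand led. miR-193a-5p had 3.37 and 4.50 CPM (Sham) and 21.9 and 14.0 CPM (CKD), from 59, 76, 384 and 233 reads. It rose in deposited CPM by 1.92 (log2, SE 0.32, limma adjusted p = 9.9e-04), the only call among the 9 that held in every setting tried on that scale (limma adjusted p from 1.3e-09 to 0.043). With TMM scaling both CKD libraries (12.1 and 8.43 CPM) lay above both Sham libraries (7.04 and 6.47 CPM), as 28% of all tested entries did. The difference of 0.52 (SE 0.21, unadjusted p = 0.058, limma adjusted p = 0.22) did not pass.

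miR-193a-3p, which carries the same seed as miR-193b-3p, was the rarest of the 9, with 19, 31, 99 and 42 reads in Sham 1, Sham 2, CKD 1 and CKD 2. These are 1.08, 1.84, 5.65 and 2.52 CPM, and the Wilson 95% intervals were 0.694 to 1.69 CPM in Sham 1 and 1.87 to 3.41 CPM in CKD 2. Such intervals cover counting error only. Its deposited values rose by 0.99 (SE 0.36, limma adjusted p = 0.024), and the call was lost without Sham 1 (0.77, limma adjusted p = 0.23), without Sham 2 (1.22, limma adjusted p = 0.088) or without CKD 1 (0.53, limma adjusted p = 0.14), and without the filter (limma adjusted p = 0.15). With TMM scaling CKD 1 (3.12 CPM) lay above and CKD 2 (1.52 CPM) below the Sham libraries (2.26 and 2.64 CPM), at a difference of -0.10 (SE 0.30, limma adjusted p = 0.86).

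Relative to the shared shift, miR-378a-3p, miR-378a-5p and miR-193a-5p lay above 0, and miR-193b-3p and miR-455-5p below 0, in every setting of the TMM-scaled comparison. miR-193a-3p, miR-193b-5p, miR-365-3p and miR-455-3p were below 0 with TMM scaling and above 0 with library totals without miR-143-3p (0.089, 0.080, 0.064 and 0.0082), so their side depends on the scaling.

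Ratios between miRNAs of the same library do not depend on that scaling. miR-378a-3p had 7.35 and 7.63 times the CPM of miR-455-3p in Sham, and 13.8 and 10.8 times in CKD. The groups did not overlap, and the mean log2 ratio was 2.90 ± 0.04 in Sham and 3.61 ± 0.25 in CKD (SD, n = 2), a difference of 0.71. Of all 36 pairs that the 9 miRNAs form, which share members, 23 did not overlap between the groups. The share among pairs of all tested entries was not computed, so whether this count is particular to these miRNAs cannot be said. For another kind of pair, the 3p and 5p arms of 1 hairpin, the ratio did not overlap in 60% of all hairpins tested. For miR-378a-3p to miR-455-3p the exact two-sided permutation test gave p = 0.33, the smallest that 2 against 2 libraries allow, and 0.89 adjusted over the 4 pairs compared.

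The other 3 pairs compared overlapped between the groups, and the sign of each difference turned when 1 library was left out. miR-193b-3p and miR-365-3p, whose hairpins lie next to each other, had ratios of 0.575 and 0.484 in Sham and 0.594 and 0.320 in CKD, with CKD 1 the highest and CKD 2 the lowest of all. miR-193a-3p had 0.00925 and 0.0120 times the CPM of miR-193b-3p in Sham, and 0.0167 and 0.0102 times in CKD. miR-455-3p had 0.429 and 0.585 times that of miR-193b-3p in Sham, and 0.560 and 0.607 times in CKD. The log2 difference of the first pair was -0.27, and 0.17 without CKD 2. That of the second was 0.31, and -0.049 without CKD 1, and that of the third 0.22, and -0.0035 without Sham 1. The exact permutation p was 1 for the first of these pairs and 0.67 for the others.

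**Figure D3:**
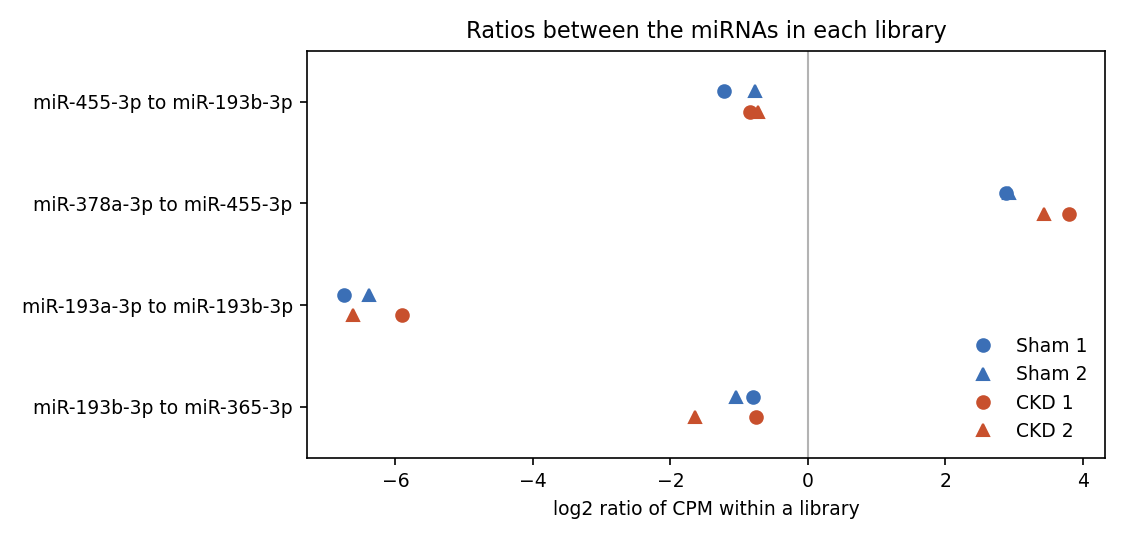
Log2 ratio of CPM within each library for 4 pairs of miRNAs, with Sham in blue and CKD in red, circles for replicate 1 and triangles for replicate 2. The 2 CKD libraries lie to the right of both Sham libraries for miR-378a-3p to miR-455-3p, and the groups overlap for the other pairs.

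The arms of a hairpin come from the same precursor, so their ratio was compared over all 130 hairpins with both arms at a mean of at least 1 CPM. By limma on the log2 ratio of the 3p to the 5p arm, none of the 4 hairpins with both arms among the members passed, where 17.7% of all hairpins did, and 1 had an unadjusted p under 0.05 (background 35.4%). The 3p share did not overlap between the groups in 3 of the 4, and the arm ratio did not overlap in 60% of all hairpins.

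For miR-455 the 3p strand held 80.2% and 83.9% of the hairpin's reads in Sham and 86.9% in each CKD library. The Wilson 95% intervals were 77.7% to 82.4% and 82.1% to 85.5% in Sham, and 85.8% to 88.0% and 85.6% to 88.1% in CKD. The log2 ratio was higher in CKD by 0.54 (SE 0.19, unadjusted p = 0.027, limma adjusted p = 0.095), which did not pass. It passed among hairpins with both arms at 10 CPM or more (0.54, limma adjusted p = 0.042), where 23 of 55 hairpins passed (41.8%).

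For miR-193a the 3p strand was the minor arm in every library, at 24.4% and 29.0% of reads in Sham and 20.5% and 15.3% in CKD, and both CKD libraries were lower. With 78 and 107 reads in Sham the intervals were wide, from 16.2% to 34.9% and from 21.2% to 38.2%. The difference in log2 ratio was -0.78 (SE 0.33, limma adjusted p = 0.15), and it passed with a pseudocount of 1 (-0.92, limma adjusted p = 0.036), where 27.7% of all hairpins did. Its paralog miR-193b was read mostly from the other arm, with 98.2% and 98.1% of reads on the 3p arm in Sham and 97.7% in each CKD library (difference -0.27, SE 0.17, limma adjusted p = 0.31). For miR-378a the 3p share was 96.8% and 97.0% in Sham and 96.8% and 96.9% in CKD, and the groups overlapped (-0.022, SE 0.15, limma adjusted p = 0.95).

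**Figure D4:**
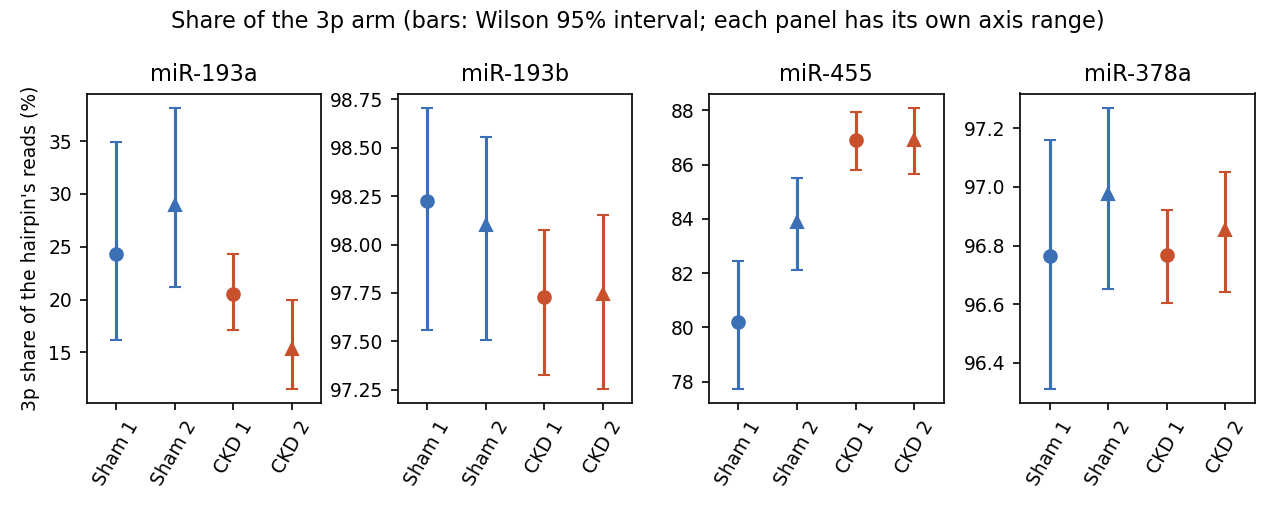
Share of each hairpin's reads on the 3p arm in every library, in percent, with Wilson 95% intervals that cover counting error only. Each panel has its own axis range. For miR-455 both CKD libraries lie at 86.9%, above both Sham libraries, and for miR-193a they lie below.

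Most other fat-linked miRNAs were higher in deposited CPM and did not pass with TMM scaling. Of 9 others described as promoting brown or beige fat, 8 rose and 1 fell by deposited CPM, at a median of 1.54, and with TMM scaling 1 fell and 8 did not pass, with a median of -0.03. edgeR also called 1 as lower, and DESeq2 called 1 as lower and 1, miR-30b-5p, as higher (0.23, adjusted p = 0.023). The one that fell in limma was miR-196a-5p, known for driving brown-like cells in white fat, with 5.65 and 5.10 CPM (Sham) and 2.45 and 2.28 CPM (CKD). Its log2 difference was -0.92 with deposited CPM (limma adjusted p = 0.011) and -2.13 with TMM scaling (limma adjusted p = 0.020). All 11 described as restraining brown or beige fat rose on the deposited scale (median 1.56), and none passed with TMM scaling (median -0.02), where 3 had an unadjusted p under 0.05, edgeR called none and DESeq2 called 3 as lower. The most abundant of them, miR-125b-5p and miR-27b-3p, lay at -0.0048 and -0.52 with TMM scaling, and at 1.58 and 1.07 with deposited CPM. The limma counts stand beside backgrounds of 82.9% higher in deposited CPM and 7.72% called after TMM scaling. For an unadjusted p under 0.05 with TMM scaling the background was 25.9%. edgeR called 6.47% of all tested entries, and DESeq2 called 10.2% as lower and 28 of 479 as higher.

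Among 8 miRNAs described as raised in or promoting white adipocyte differentiation, 6 rose and 1 fell on the deposited scale (median 1.49), and 2 fell with TMM scaling (median 0.19). Those that fell with TMM scaling were miR-143-3p, which is also the main smooth muscle miRNA, and miR-148a-3p. miR-148a-3p had 1633 and 2630 CPM (Sham) and 3524 and 3195 CPM (CKD), with a difference of -0.89 with TMM scaling (limma adjusted p = 0.023) and 0.69 with deposited CPM (limma adjusted p = 0.092). The 2 scales thus put it on opposite sides of 0. With TMM scaling no entry at all was called without CKD 1 or without CKD 2, these 2 and miR-196a-5p included.

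Summed levels of markers of other cell types also differed between the groups on the deposited scale, and their part in the results was not tested. Striated muscle miRNAs, 7 in the list and none at 0 in all libraries, summed to 533 and 651 CPM (Sham) and 1287 and 1026 CPM (CKD). With TMM scaling the same list summed to 1114 and 936 CPM (Sham) and 712 and 618 CPM (CKD). Within that list miR-133a-3p led, with 499.7 to 1189 CPM, followed by miR-133b-3p (24.3 to 83.0 CPM) and miR-1a-3p (7.76 to 16.6 CPM). The others were lower, with miR-499-5p at 0.63 to 3.6 CPM, miR-208a-3p at 0.36 to 1.37 CPM, miR-208b-3p at 0.06 to 0.30 CPM and miR-206-3p at 0 to 0.30 CPM. miR-140-3p and miR-140-5p, listed as cartilage miRNAs, summed to 27536 and 34085 CPM (Sham) and 42662 and 35919 CPM (CKD). In these aortas miR-140-3p ranked 3, 3, 4 and 5 among all entries (Sham 1, Sham 2, CKD 1 and CKD 2). Which cells it came from was not tested, so it cannot be read as a cartilage signal here. With TMM scaling the 2 miR-140 strands summed to 57527 and 48987 CPM (Sham) and 23587 and 21637 CPM (CKD), so the direction depends on the scale. Red cell miRNAs summed to 219 and 841 CPM (Sham) and 1035 and 4804 CPM (CKD), of which miR-486a-5p gave 3266 CPM in CKD 2. On this scale miR-451a and miR-144-5p overlapped between the groups, and miR-486a-5p and miR-144-3p did not. The hepatocyte miRNAs miR-122-5p and miR-122-3p summed to 1.43 and 25.5 CPM (Sham) and 161 and 56.3 CPM (CKD). Leukocyte miRNAs summed to 75.9 and 219 CPM (Sham) and 409 and 446 CPM (CKD), and endothelial miRNAs to 2899 and 3411 CPM (Sham) and 9989 and 9767 CPM (CKD). With TMM scaling the sums of these last 4 lists overlapped between the groups. Smooth muscle miRNAs made up 83.4% and 77.5% of reads in Sham and 48.6% and 48.9% in CKD. On the deposited scale 2 of 4 smooth muscle, 2 of 4 striated muscle, 4 of 4 red cell, 3 of 4 leukocyte, 2 of 2 endothelial, 1 of 1 hepatocyte and 1 of 2 cartilage miRNAs tested rose, and 1 smooth muscle miRNA fell. Of all tested entries 82.9% were called higher on that scale. By limma with TMM scaling 2 smooth muscle miRNAs and miR-140-3p of the cartilage list fell, and no marker rose (7.72% of all tested entries called). edgeR called 1 smooth muscle and 1 cartilage miRNA as lower and none as higher. DESeq2 called 3 smooth muscle, 1 striated muscle and 2 cartilage miRNAs as lower. It called 1 smooth muscle and 1 leukocyte miRNA as higher, where 28 of the 479 tested entries were higher and 49 lower. The striated muscle call was miR-133a-3p (DESeq2 adjusted p = 0.0014). That miRNA and miR-133b-3p are also in the list restraining brown or beige fat, so this call is counted in both lists.

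For the most abundant member of each family, the entries with the most similar profile were found by Euclidean distance of centred log2(CPM + 1) over the 4 libraries, among 264 other entries with a mean of at least 10 CPM. For miR-378a-3p they were miR-378c (distance 0.082) and miR-378a-5p (0.11). For miR-193b-3p they were miR-328-3p (0.092) and miR-127-3p (0.12), and for miR-455-3p miR-152-5p (0.097) and miR-28c (0.13). For miR-365-3p they were miR-146a-5p (0.064), with 151 and 230 CPM (Sham) and 432 and 553 CPM (CKD), and miR-411-3p (0.11). With 4 libraries that share a common shift, such a likeness is a description only.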

How the data were processed

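Per the labels' protocols, total RNA was extracted with Trizol, pooled from 4 samples per library, cut from a gel at 18 to 30 nucleotides and ligated to adaptors at both ends. The aligner Bowtie and the build GRCm38 come from the submitters' processing notes. Which miRNA annotation was used, and how reads with several matches were counted, is not stated there, and no molecular identifiers are described. The deposited values sum to about 1000000 per library and were read as CPM. Of the deposited files, 3 have 1 column in which all names come before all CPM, and these were paired by order. Whole reads were recovered for 100% of values above 0 (tolerance 0.005 CPM), which gave the library totals.

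limma 3.58.1 (R 4.3.3) with a mean-variance trend was run, two-sided, on log2(CPM + 1) of the 479 entries averaging 1 CPM or more, with Benjamini-Hochberg adjustment and a threshold of 0.05. On this scale the change of low entries is understated. The same fit was run after division by TMM factors (0.479 and 0.696 in Sham, 1.81 and 1.66 in CKD) from these entries (edgeR 4.0.16). The plan did not say which entries set the factors. Factors from all listed entries were run first, and called miR-455-5p. The version from the tested entries replaced it as the main one after that result was seen, and does not call it. Both are given. Arm ratios used a pseudocount of 0.1 CPM. edgeR and DESeq2 1.42.0 on the recovered reads were alternatives. Other alternatives were the filter, the pseudocount, the trend, other scalings, the replicate block and leaving out each library. The functions were tested on simulated counts. Within each group the libraries were distinct (chi-square over its degrees of freedom, 310.5 in Sham and 219.9 in CKD), so none was treated as a duplicate. Named entries were the 9 members, their listed relatives, entries called with TMM scaling in each list or else its 2 most abundant, and the nearest profiles. The 7 striated muscle markers and miR-30b-5p were named after their values were seen. The members and lists were chosen with earlier results of these data known.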

Additional observations from a re-analysis of the deposited data

How the results depend on the processing

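With 2 libraries per group, leaving out 1 library moved most counts. In such fits the lone library is assumed to vary like the other group. The count of called members ranged from 1 to 8 with deposited CPM (8 with all libraries) and stayed at 0 with TMM scaling. Over all entries it ranged from 137 to 384 (402) on the deposited scale, from 0 to 7 (37) with TMM scaling, and for arm ratios from 0 to 32 (23). Without CKD 1 or CKD 2 none was called with TMM scaling, and without Sham 1 or Sham 2 no arm ratio. Without the filter 3 members were called on the deposited scale and 21 entries with TMM scaling, and at 10 CPM or more 241 entries on the deposited scale, where fewer were tested. DESeq2 called 77 entries and 1 member with its own size factors, TMM factors from all listed entries, the version run first, 1 member (miR-455-5p both times), and a pseudocount of 1 gave 36 arm ratios. With library totals without miR-143-3p, miR-193a-3p lay at 0.089, miR-193b-5p at 0.080, miR-365-3p at 0.064 and miR-455-3p at 0.0082. With TMM scaling, leaving out each library gave -0.47 to 0.074 for miR-365-3p (above 0 without CKD 1), -0.43 to 0.25 for miR-193a-3p and -0.26 to 0.011 for miR-193b-5p (both above 0 without CKD 2). The arm ratio of miR-378a lay at 0.037 with a pseudocount of 1, and from -0.075 to 0.031 with a library left out (above 0 without Sham 2). Other causes than fewer libraries or entries were not tested.

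The labels number the libraries 1 and 2 in each group, but nothing pairs them, and the deviations of same-numbered libraries correlated at 0.0999 for deposited and 0.118 for TMM-scaled values over 479 entries. With the replicate number as a block, 352 entries and 7 members were called on the deposited scale, miR-193b-3p no longer among them (limma adjusted p = 0.087), 10 entries and 0 members with TMM scaling, and 13 arm ratios. Over single miRNAs, hairpins and ratios, 223 alternatives kept the direction and side of the threshold, 22 lost a call, 6 gained one and 12 changed sign. Of the 12, 3 are ratios: with a library left out, the log2 difference ran from -0.72 to 0.17 for miR-193b-3p to miR-365-3p, from -0.049 to 0.66 for miR-193a-3p to miR-193b-3p and from -0.0035 to 0.44 for miR-455-3p to miR-193b-3p. Depth limits miR-193a-3p most, at 19 to 99 reads.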

Other observations

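Some values were looked at only after the data had been seen and are given as a description. The miR-193a hairpin made up 3.61% (Wilson 95% interval 2.90% to 4.48%) and 3.91% (3.24% to 4.70%) of all miR-193a and miR-193b reads in Sham 1 and Sham 2. In CKD 1 and CKD 2 it made up 7.36% (6.75% to 8.02%) and 6.13% (5.46% to 6.87%), above both Sham libraries. As a ratio within each library this share does not depend on the scaling, and the intervals cover counting error only. How often other paralog pairs separate the groups was not computed. The 3p strands alone overlapped, with miR-193a-3p at 0.00925 and 0.0120 times miR-193b-3p in Sham and 0.0167 and 0.0102 times in CKD.

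The 5p strands of miR-365 were rare. miR-365-1-5p had 13 and 20 reads in Sham and 21 and 19 in CKD, and miR-365-2-5p had 6 and 8 reads in Sham and 21 and 20 in CKD. These strands share their seed and differ at 3 of 23 positions. Together they held 0.532% and 0.522% of all miR-365 reads in Sham, and 0.418% and 0.302% in CKD. miR-365-1-5p did not pass on either scale, and miR-365-2-5p, whose mean level is under 1 CPM, was not tested.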
